A study of Mus musculus with 2 samples.

Results

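Macrophage-rich spots are the 160 places of 2 imiquimod-treated mouse skin sections, 80 in each, where transcripts of 7 macrophage genes took the largest share of all transcripts captured. The 7 genes were *Cd68*, *Csf1r*, *Adgre1*, *Mrc1*, *C1qa*, *C1qb* and *C1qc*. In each section the spots with at least 500 unique molecular identifiers (UMIs, the tag of 1 captured molecule) were kept and ranked by the summed UMIs of the 7 genes over all UMIs of the spot, and the 80 spots ranked highest were taken. They were 80 of 1096 kept spots in the *S1pr2* f/f section, which had 1282 spots over tissue, and 80 of 947 kept spots in the *S1pr2* f/f K14-Cre section, which had 981. Both mice carried floxed *S1pr2* alleles, were 8 weeks old at the start and received 62.5 mg of 5% imiquimod (IMQ) cream on depilated back skin each day for 7 days. The second mouse also carried Cre recombinase under the keratin 14 promoter, which is active in keratinocytes, so the deletion of *S1pr2* is not directed at macrophages. The sections, 10 μm thick, came from formalin-fixed, paraffin-embedded skin and were measured by hybridized probe pairs on barcoded spots (Visium CytAssist). There was 1 section of 1 mouse per genotype, so no difference between the genotypes has a replicate check, and no test was made. The sections are called f/f and K14-Cre from here on. Over tissue the *S1pr2* f/f section held 5315351 UMIs and the *S1pr2* f/f K14-Cre section 2845826. Keratin 14 itself (*Krt14*) was among the abundant genes of the remaining spots, 16240.1 and 7786 CPM (counts per 1000000 UMIs of the same spots). *S1pr2* (ENSMUSG00000043895) had 141 UMIs in the remaining and 12 in the macrophage-rich spots of the *S1pr2* f/f section (27.9 and 52.2 CPM), and 50 and 4 in those of the *S1pr2* f/f K14-Cre section (19.2 and 17.3 CPM). Whether its probes lie in the deleted part is not given in the sources used here.

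Macrophages are phagocytes that live in the dermis and the subcutaneous fat and are joined during inflammation by cells that arise from blood monocytes. They depend on the receptor CSF1R for survival, display the surface receptors F4/80 (*Adgre1*) and CD206 (*Mrc1*), carry CD68 in their lysosomes, and are the main source of C1q, the recognition protein that starts the classical complement pathway. Their activation is often described between a classical state, with inflammatory cytokines and inducible nitric oxide synthase, and an alternative state, with lectins and scavenger receptors.

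The values that chose the spots are a description, not a result. The chosen spots held 229780 UMIs in the f/f section and 230862 in the K14-Cre section, and 1414 and 1717 of these belonged to the 7 genes. The 7 genes took 0.517% to 1.03% of the UMIs of a chosen spot in the f/f section and 0.546% to 1.4% in the K14-Cre section. A chosen spot held a median of 16.5 UMIs of the 7 genes (range 3 to 45) and 17 (range 4 to 79). *C1qa* (ENSMUSG00000036887) was the most abundant, with 387 and 682 UMIs, and was found in 72 and 78 of the 80 spots. *Adgre1* was the least abundant, with 27 and 41 UMIs. *Csf1r* had 91 and 45, *Cd68* 112 and 71, *Mrc1* 230 and 265, *C1qb* 260 and 282, and *C1qc* 307 and 331.

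The edge of the choice was not sharp. The last spot taken in the f/f section had a share of 0.517% and the first one left out 0.516%, and these were 0.546% and 0.543% in the K14-Cre section. The exact Poisson 95% interval of the last spot taken ran from 0.358% to 0.722% and from 0.22% to 1.13%. A share of few UMIs varies more in a shallow spot, and the chosen spots of the f/f section were shallower than the rest, with a median of 2536 UMIs against 4554.5. In the K14-Cre section the medians were 2280 and 2386. When each spot was thinned at random to 500 UMIs before the ranking, 31 and 39 of the same 80 spots were chosen, and a ranking by summed UMIs kept 24 and 35. The remaining spots were not free of the 7 genes: they held 85.6% and 74.1% of all their UMIs. The 357 spot barcodes shared by the sections name places of the array and not cells. Chosen spots had 1 of them in common. A spot covers several cells, so a spot rich in these transcripts is not a macrophage, and more macrophages and more transcript per macrophage cannot be told apart.

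The label was checked by leaving out each gene in turn. Each of the 7 genes was higher in spots chosen by the other 6, a measure that the choice did not use. Those spots were not all among the 80 described here: from 59 to 76 were in the f/f section, and from 55 to 77 in the K14-Cre section. For *C1qa* the ratio of its CPM in such spots to that in the other kept spots was 2.55 (2.25 to 2.89) in the f/f section and 2.78 (2.49 to 3.1) in the K14-Cre section. Values in parentheses are 95% intervals throughout, which are conditional binomial for ratios and cover counting error only. The ratio was 2.32 (1.97 to 2.72) and 2.52 (2.16 to 2.94) for *C1qb*, and 2.48 (2.15 to 2.85) and 2.43 (2.11 to 2.8) for *C1qc*. For *Csf1r*, the growth factor receptor, it was 2.35 (1.75 to 3.11) and 1.65 (1.13 to 2.33). For *Mrc1*, the mannose receptor, it was 1.96 (1.63 to 2.33) and 2.77 (2.37 to 3.23). For *Cd68* it was 2.25 (1.75 to 2.85) and 2.4 (1.79 to 3.17), and for *Adgre1* 1.87 (1.08 to 3.02) and 2.6 (1.68 to 3.92). The interval of every gene lay above 1 in both sections, against all other kept spots and not within a layer. These ratios are below the 3.68 and 3.94 of all 7 genes in the spots they chose themselves.

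The C1q genes lie side by side on chromosome 4 and were higher together here, so the promoters of the pair in the RefSeq table are shown, 300 bases around the annotated start on the minus strand of GRCm38.p6. That of *C1qb* covers chr4:136886151-136886450 and that of *C1qc* chr4:136892865-136893164. Of the 7 genes, 4 were counted in this table. Capitals mark the motif GAGGAAGT, the core bound by PU.1, the ETS factor that macrophages need, searched on both strands.
C1qb: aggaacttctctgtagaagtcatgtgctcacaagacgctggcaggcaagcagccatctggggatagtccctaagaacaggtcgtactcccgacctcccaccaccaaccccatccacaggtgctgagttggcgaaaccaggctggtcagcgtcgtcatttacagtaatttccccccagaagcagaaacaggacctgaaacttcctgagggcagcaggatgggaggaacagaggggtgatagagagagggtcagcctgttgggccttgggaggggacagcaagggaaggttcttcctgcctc
C1qc: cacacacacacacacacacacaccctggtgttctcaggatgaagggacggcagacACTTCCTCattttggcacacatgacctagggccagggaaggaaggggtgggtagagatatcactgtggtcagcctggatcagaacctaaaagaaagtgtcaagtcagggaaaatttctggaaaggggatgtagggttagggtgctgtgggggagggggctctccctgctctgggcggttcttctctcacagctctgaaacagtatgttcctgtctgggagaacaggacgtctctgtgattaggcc
The *C1qc* promoter holds the motif on its opposite strand (as ACTTCCTC), 195 bases before the start, and the *C1qb* promoter does not hold these letters. Of all 32851 promoters in the table, 3.20% hold the motif, and of its 27025 genes 3.69% have such a promoter. By genes, it is in 1 of the 16 other macrophage genes counted and in 2 of 11 phagocyte receptor and signalling genes. The counts by list leave out a chromosome that the counts of all promoters keep, so their bases differ. A match is a description of the letters and not a bound site.

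The macrophage-rich spots were mostly led by genes of the dermis or fat and seldom by those of the epidermis. Each kept spot was given the layer whose genes were most over-represented in it, out of lists for epidermis, dermis, fat, muscle and hair. Dermal genes led 31.3% (21.3 to 42.6) of the macrophage-rich spots of the f/f section and 17.9% (15.6 to 20.4) of the remaining spots. Fat genes led 33.8% (23.6 to 45.2) against 15.6% (13.4 to 17.9), and muscle genes 26.3% (17 to 37.3) against 21.2% (18.7 to 23.8). Epidermal genes led 1 of the 80 macrophage-rich spots and 29.8% (27 to 32.7) of the rest. In the K14-Cre section dermal genes led 40% (29.2 to 51.6) against 15.6% (13.2 to 18.2), fat genes 27.5% (18.1 to 38.6) against 14.3% (12 to 16.8), and muscle genes 17.5% (9.91 to 27.6) against 28.5% (25.5 to 31.6). Epidermal genes led 3 of 80, 3.75% (0.78 to 10.6), and 27.9% (24.9 to 31) of the rest. Hair genes led 7.5% (2.8 to 15.6) and 11.3% (5.28 to 20.3) of the macrophage-rich spots. Of the rest they led 15.6% (13.4 to 17.9) and 13.7% (11.5 to 16.2). The hair list held only 10 and 27 UMIs in the macrophage-rich spots, so a hair-led label rests on few UMIs. As a background, as many olfactory, vomeronasal, taste and trace amine receptor genes at their mean level would give 69.7% and 58.6% of that level. The intervals are Clopper-Pearson and treat spots as independent, which neighbouring spots are not. The leading list exceeded the next only narrowly in 16 and 17 of the 80 spots. The muscle-led macrophage-rich spots of the f/f section were shallow, with a median of 1136 UMIs, against 3778 for those led by dermal genes.

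**Figure D1:**
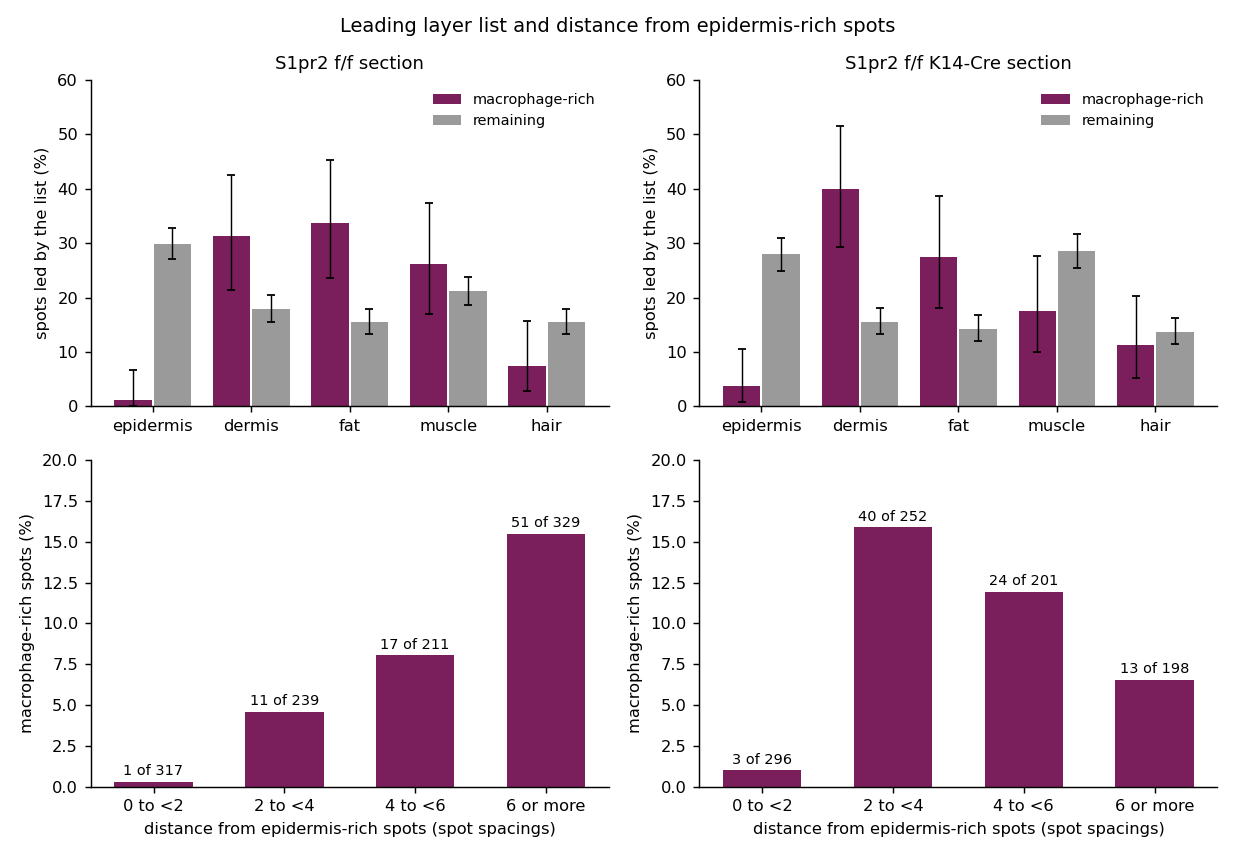
Upper panels: percent of the 80 macrophage-rich and of the remaining spots of each section led by each layer list, with Clopper-Pearson 95% intervals. Lower panels: percent of kept spots that were macrophage-rich by distance from the spots richest in epidermal genes, in spot spacings. Epidermal genes led 1 and 3 macrophage-rich spots, and 1 and 3 lay within 2 spacings of the spots richest in epidermal genes.

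Few macrophage-rich spots lay close to the spots richest in epidermal genes. The distance was taken to the nearest of the 10% of kept spots richest in epidermal genes. Its median was 6.56 spot spacings for macrophage-rich spots and 3.61 for remaining spots of the f/f section, and 3.61 and 3.46 in the K14-Cre section. Within 2 spacings of the epidermis-rich spots, 1 of 317 and 3 of 296 kept spots were macrophage-rich. From 2 to under 4 spacings they were 4.6% and 15.9% of the spots, from 4 to under 6 8.06% and 11.9%, and from 6 on 15.5% and 6.57%. The 20 macrophage genes outside the rule had their highest level from 4 to under 6 spacings in the f/f section, 2618 CPM against 926 CPM within 2 spacings. It was highest from 2 to under 4 spacings in the K14-Cre section, 2832 CPM against 1338.5 CPM within 2. This distance is not a depth, since epidermal genes also led spots on other edges that are not among the richest 10%. The distance to the nearest spot led by epidermal genes, added after seeing the data, had a median of 4.18 spacings for macrophage-rich and 1.73 for remaining spots of the f/f section, and of 2 and 1.73 in the K14-Cre section. By it, 39 of the 51 macrophage-rich spots of the f/f section at 6 or more spacings came closer than 6. Macrophage-rich were then 1.57% and 6.43% of the kept spots within 2 spacings, 11.1% and 14.1% from 2 to under 4, 16.1% and 12.6% from 4 to under 6, and 16% and 2.65% from 6 on. The share was highest from 2 to under 4 spacings by both measures in the K14-Cre section, while in the f/f section it was about equal from 4 to under 6 and from 6 on by the second measure. The level of the 20 other macrophage genes was by this measure highest from 2 to under 4 spacings in both sections, 2694 CPM against 2061 CPM from 4 to under 6 in the f/f section, and 2765 against 2047 CPM in the K14-Cre section. No difference in depth between the sections is drawn from these distances.

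**Figure D2:**
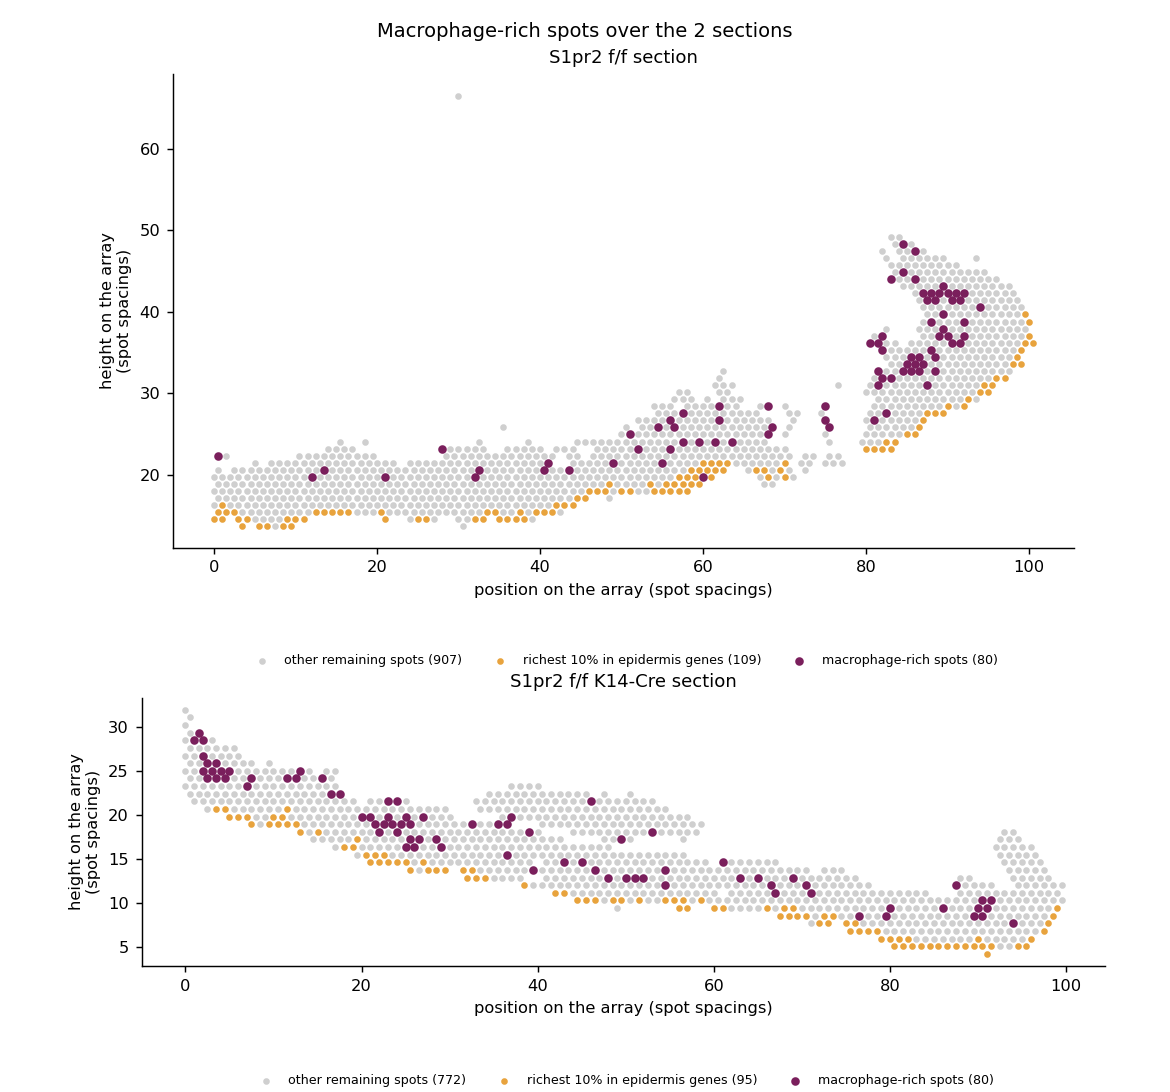
Position of every kept spot on the array, in spot spacings on both axes, with the 80 macrophage-rich spots of each section in purple and the remaining spots richest in epidermal genes in orange. In the S1pr2 f/f section 48 of the 80 lie in the piece on the right, and 1 and 3 of the 80 lie within 2 spacings of the epidermis-rich spots.

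The macrophage-rich spots were not spread evenly along the sections. The f/f section fell into 2 pieces of at least 20 connected kept spots, a division made after seeing the map. With the spots under 500 UMIs counted as links between them, 1090 of its 1096 kept spots lay in 1 connected group. Whether they are strips of the same skin is not given in the sources used here. Outside the pieces lay 29 kept spots, 4 of them macrophage-rich. The smaller piece, at one end, held 48 macrophage-rich spots among 367 (13.1%), and the longer piece 28 among 700 (4%). The level of the 7 genes over all spots was 2317 CPM in the smaller and 1609.6 CPM in the longer piece. The longer piece had more muscle transcript, 27389 CPM against 5938 CPM. The K14-Cre section was 1 piece. Chosen spots also lay beside each other: 45 of 80 and 57 of 80 touched another one, and 23.1% and 27.4% of their neighbours were chosen, against 6.08% and 7.1% of the neighbours of remaining spots. The largest patch had 11 spots in each section. Remaining spots that touched a chosen spot had a higher level of the 20 macrophage genes outside the rule than those that did not, 2666 against 1532 CPM in the f/f section (ratio 1.74, 1.65 to 1.83) and 2707 against 1528 CPM in the K14-Cre section (1.77, 1.67 to 1.88). The spots compared were not matched by layer, and the part of the layer in these ratios was not tested.

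Other macrophage genes were higher in the macrophage-rich spots of both sections. The 20 genes of this list, all outside the rule, summed to 3286 CPM in the macrophage-rich spots and 1701 CPM in the remaining spots of the f/f section, a ratio of 1.93 (1.79 to 2.08). They summed to 4349 CPM in the macrophage-rich spots and 1851 CPM in the remaining spots of the K14-Cre section, a ratio of 2.35 (2.19 to 2.52). Of the members with at least 100 UMIs over the kept spots, 10 of 15 and 11 of 11 were at least 1.5-fold higher and 0 were at least 1.5-fold lower. Over all genes with that many UMIs, 21.6% were at least 1.5-fold higher in the f/f section and 19.1% in the K14-Cre section, while 20.5% and 22.8% were at least 1.5-fold lower. These shares include genes that pass through counting error. The limit of 100 UMIs covers both kinds of spots, so a gene can reach it only through its UMIs in the macrophage-rich spots. *Cd14* did so in the K14-Cre section, and the counts of members here and below are therefore a description. The list's median log2 ratio was 0.67 and 1.38, beside 0.04 and -0.01 over all these genes. The most abundant member was *Ctss*, the lysosomal protease cathepsin S, with 137 UMIs, ratio 2.03 (1.69 to 2.42), and 256 UMIs, ratio 2.66 (2.32 to 3.05). *Emilin2*, an extracellular matrix glycoprotein, had the highest ratio of these members in the f/f section, 3.38 (2.5 to 4.48), and 3.06 (2.21 to 4.17) in the other. *Cd14*, the co-receptor for bacterial lipopolysaccharide, had the highest ratio in the K14-Cre section, 3.36 (2.06 to 5.3) from 25 UMIs, and only 2 UMIs in the macrophage-rich spots of the f/f section. *Gpnmb*, a glycoprotein of lipid-laden macrophages, was the lowest of the members with at least 100 UMIs in the f/f section, 1.05 (0.656 to 1.59). *Lyz2*, the lysozyme that marks most myeloid cells, had 3 and 2 UMIs and was near the limit of detection with these probes.

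Genes of tissue-resident macrophages and of monocytes were also higher against all remaining spots. The lists overlap, so that *Cd163* and *Ccr2* also belong to the list above. Resident genes, which include scavenger receptors and growth factors, had a ratio of 2.09 (1.95 to 2.24) in the f/f section and 1.63 (1.5 to 1.77) in the K14-Cre section. At least 1.5-fold higher were 6 of 7 and 6 of 7 members, beside 21.6% and 19.1% of all genes. *Gas6*, a ligand that bridges apoptotic cells to the receptors MERTK and AXL, was the most abundant (206 and 159 UMIs), with ratios of 1.98 (1.71 to 2.28) and 1.51 (1.27 to 1.78). *Cd163*, the haemoglobin scavenger receptor, had 105 and 47 UMIs and ratios of 2.98 (2.41 to 3.66) and 1.54 (1.11 to 2.09). *F13a1*, coagulation factor XIII A, had 2.44 (2.1 to 2.83) and 1.62 (1.3 to 2). *Stab1*, a scavenger receptor, had 2.07 (1.67 to 2.56) and 2.08 (1.64 to 2.63). *Lyve1*, *Timd4* and *Vsig4*, which mark subsets of resident macrophages, had 4, 1 and 1 UMIs in the f/f section and 1, 8 and 0 in the other, too few for a ratio. Monocyte genes had a ratio of 2.08 (1.88 to 2.29) and 1.93 (1.72 to 2.15), led by *Fn1*, fibronectin, which dermal fibroblasts also make, at 2.5 (2.1 to 2.95) and 2.24 (1.86 to 2.68). Without *Fn1* the ratios were 1.9 and 1.77. *Ccr2*, the receptor that brings monocytes into tissue, had 60 UMIs, ratio 1.86 (1.41 to 2.43), and 66 UMIs, ratio 1.71 (1.3 to 2.22). Each spot has a leading layer list, and against remaining spots led by the same one both lists had lower ratios. Resident genes had 1.51 (1.34 to 1.69), 1.15 (1.04 to 1.29) and 1.38 (1.11 to 1.69) among dermis-led, fat-led and muscle-led spots of the f/f section, and 1.19 (1.04 to 1.37), 1.32 (1.13 to 1.54) and 1.2 (0.954 to 1.49) in the K14-Cre section. Monocyte genes had 1.46 (1.24 to 1.71), 1.2 (1.02 to 1.4) and 1.24 (0.878 to 1.71) in the f/f section and 1.43 (1.22 to 1.68), 1.12 (0.86 to 1.44) and 1.17 (0.801 to 1.65) in the K14-Cre section, where only the dermis-led interval lay above 1.

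Most receptor and signalling genes of phagocytes were higher. Their summed ratio was 1.97 (1.84 to 2.11) in the f/f section and 2.43 (2.27 to 2.59) in the K14-Cre section, and 11 of 15 and 13 of 14 members were at least 1.5-fold higher, with 0 at least 1.5-fold lower. Of all genes, 21.6% and 19.1% were higher and 20.5% and 22.8% lower. *Fcer1g*, the signalling chain of Fc receptors, was the most abundant, at 2.16 (1.83 to 2.55) and 2.33 (2 to 2.7), and its partner adaptor *Tyrobp* had 2.16 (1.69 to 2.72) and 2.49 (1.93 to 3.19). *Cd53*, a leukocyte tetraspanin, was the highest in the f/f section, 3.14 (2.2 to 4.36), with 2.34 (1.58 to 3.38) in the other. *Fcgr4*, an activating IgG receptor, was the highest in the K14-Cre section, 3.56 (2.44 to 5.09) from 41 UMIs, with 2.13 (0.829 to 4.63) from 7 UMIs in the f/f section. *Spi1*, which encodes PU.1, had 1.65 (1.07 to 2.44) and 1.95 (1.34 to 2.76). Lysosomal genes, which every cell uses, differed less: 1.29 (1.24 to 1.34) and 1.32 (1.26 to 1.37), with *Ctsb* (cathepsin B) at 1.57 (1.45 to 1.71) and 1.55 (1.43 to 1.68), and *Ctsl* (cathepsin L, also made by keratinocytes) at 0.916 (0.829 to 1.01) and 0.562 (0.493 to 0.638), below 1 in the K14-Cre section. Against remaining spots led by the same layer list, the phagocyte receptor ratios were 1.36 (1.22 to 1.51), 1.24 (1.11 to 1.39) and 1.34 (1.04 to 1.71) among dermis-led, fat-led and muscle-led spots of the f/f section and 1.55 (1.41 to 1.71), 1.28 (1.07 to 1.52) and 1.32 (1.03 to 1.66) in the K14-Cre section, with every interval above 1. The lysosomal ratios lay from 1.05 to 1.16 and from 1.04 to 1.16.

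**Figure D3:**
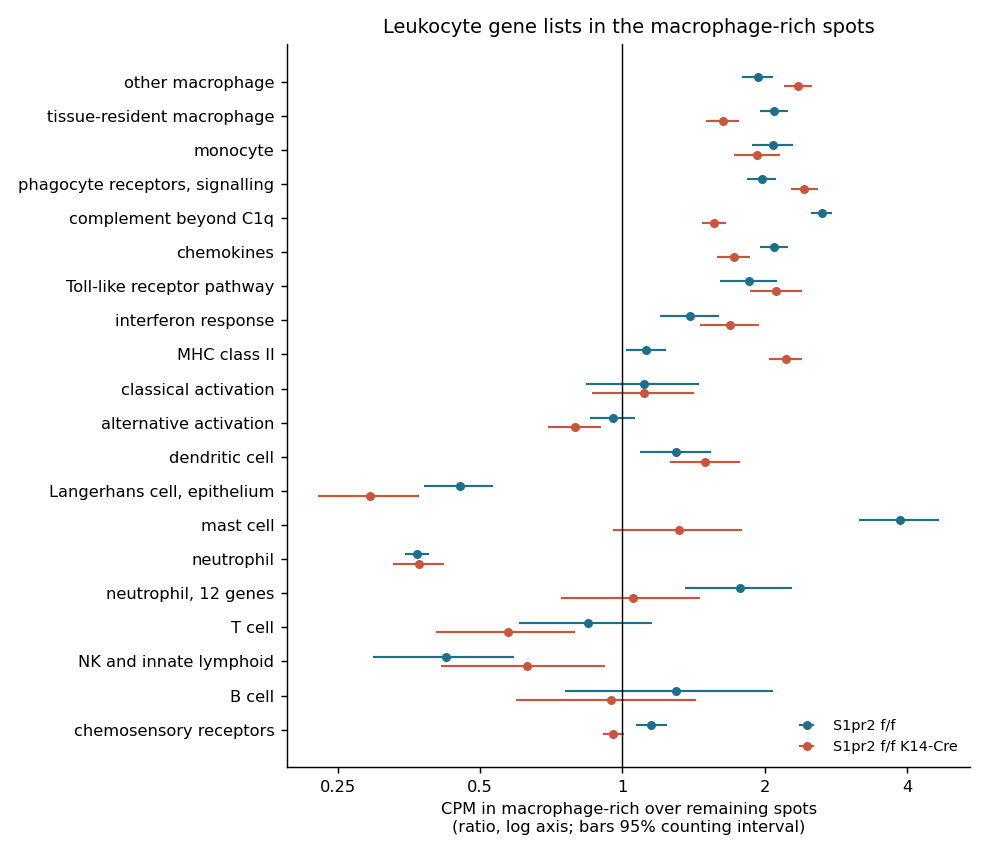
Ratio of summed CPM in the macrophage-rich over the remaining spots for 20 gene lists, on a log axis, with 95% intervals for counting error and 1 colour per section. Macrophage, monocyte, phagocyte and complement lists lie right of 1 in both sections, both activation lists lie at 0.794 to 1.11, and the sections differ in MHC class II (1.12 and 2.22) and mast cell genes (3.87 and 1.32).

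Neither activation list was higher as a whole. The 16 genes of classical activation summed to 57 UMIs in the macrophage-rich spots of the f/f section and 72 in the K14-Cre section. Their level was 248 CPM in the macrophage-rich spots and 223 CPM in the remaining spots of the f/f section, and 312 CPM in the macrophage-rich spots and 280.1 CPM in the remaining spots of the K14-Cre section, with ratios of 1.11 (0.837 to 1.45) and 1.11 (0.861 to 1.42). None of the 3 members with at least 100 UMIs in the f/f section was at least 1.5-fold higher, and 1 of 2 was in the K14-Cre section (*Irf5*). Of all genes, 21.6% and 19.1% were. As a background, 16 genes at the mean level of the 1226 olfactory, vomeronasal, taste and trace amine receptor genes would give 16.3% and 29.3% of that level. *Nos2*, the inducible nitric oxide synthase, and *Il12b*, the shared subunit of IL-12 and IL-23, had 0 UMIs in the macrophage-rich spots of both sections, where a count of 0 allows up to 3 UMIs. *Il1b* had 4 and 3 UMIs, with ratios of 0.887 (0.237 to 2.34) and 0.996 (0.196 to 3.17). *Tnf* had 3 and 6 UMIs, and *Il6* 4 and 0. *Irf5*, a transcription factor of inflammatory macrophages, had 16 UMIs, ratio 1.39 (0.782 to 2.3), and 18 UMIs, ratio 1.68 (0.963 to 2.77). *Socs3*, a feedback inhibitor of cytokine signalling, had 7 UMIs, ratio 0.485 (0.193 to 1.01), and 23 UMIs, ratio 1.03 (0.644 to 1.59). Over all layers both intervals of the list include 1.

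The 17 genes of alternative activation held members on both sides of 1. It gave 1532 CPM in the macrophage-rich spots and 1607 CPM in the remaining spots of the f/f section, a ratio of 0.953 (0.854 to 1.06), and 1096 CPM in the macrophage-rich spots and 1379.6 CPM in the remaining spots of the K14-Cre section, a ratio of 0.794 (0.697 to 0.903). In the f/f section 4 of 10 members were at least 1.5-fold higher and 3 at least 1.5-fold lower, and in the K14-Cre section 3 of 7 and 2. Of all genes, 21.6% and 19.1% were higher and 20.5% and 22.8% lower, so counts from so few members are only a description. Lectins and scavenger receptors of macrophages were among the higher ones. *Clec10a*, the galactose-type lectin CD301, had the highest ratio of those with at least 100 UMIs in both sections, 3.01 (2.1 to 4.2) from 40 UMIs and 2.7 (1.79 to 3.97) from 33 UMIs, and its paralogue *Mgl2* had 2.7 (1.04 to 5.92) and 2.82 (1.2 to 5.97). The pair is similar in sequence, so their counts may not be fully separate. *Cd163* was given above. *Il1rn*, the interleukin-1 receptor antagonist, which keratinocytes make in quantity, was lower in both sections, 0.315 (0.235 to 0.413) from 53 UMIs and 0.204 (0.129 to 0.307) from 23 UMIs. *Egr2* had 1 and 2 UMIs, with ratios of 0.106 (0.00267 to 0.598) and 0.289 (0.0344 to 1.08). *Tgm2*, transglutaminase 2, lay on different sides of 1 in the sections, 1.92 (1.35 to 2.66) and 0.737 (0.533 to 0.997), and *Retnla*, the resistin-like molecule RELMα, had 23 UMIs, ratio 1.68 (1.05 to 2.57), and 3 UMIs, ratio 0.372 (0.0753 to 1.12). *Myc*, a growth regulator of many cells, had 6 UMIs, ratio 0.716 (0.259 to 1.59), and 20 UMIs, ratio 2.24 (1.31 to 3.64). None of these differences between the sections was tested.

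**Figure D4:**
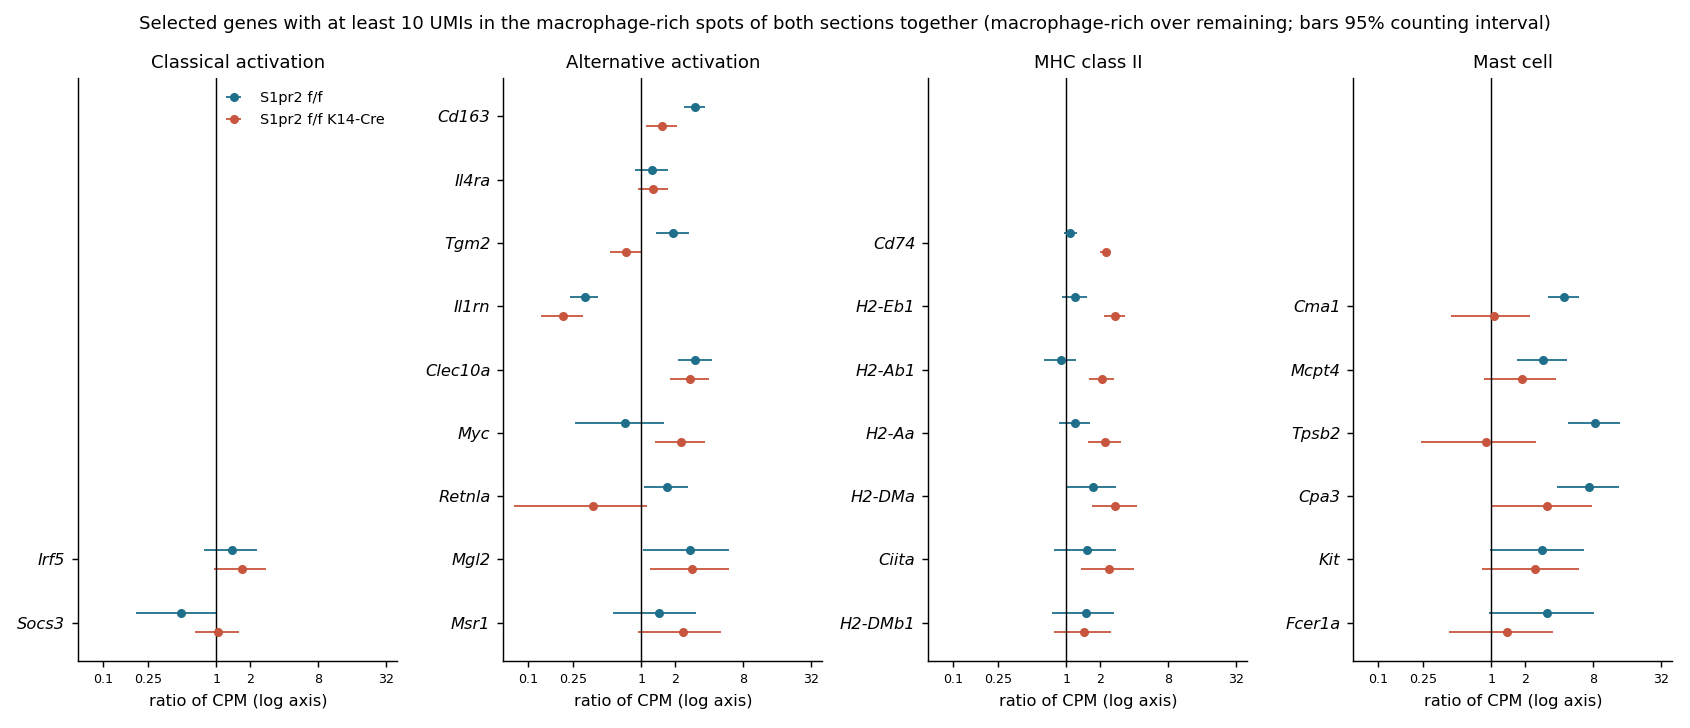
Ratio of CPM in the macrophage-rich over the remaining spots for selected classical activation, alternative activation, MHC class II and mast cell genes with at least 10 UMIs in the macrophage-rich spots of both sections together, on a log axis, with 95% intervals for counting error. Clec10a lies right of 1 and Il1rn lies left of 1 in both sections, while 6 MHC class II genes lie farther right in the S1pr2 f/f K14-Cre section and Cma1, Tpsb2 and Cpa3 farther right in the S1pr2 f/f section.

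MHC class II genes, which serve antigen presentation, had a higher ratio in the K14-Cre than in the f/f section against all remaining spots. In the f/f section the 9 MHC class II genes summed to 1902 CPM in the macrophage-rich spots and 1697 CPM in the remaining spots, a ratio of 1.12 (1.02 to 1.23), and 2 of 7 members were at least 1.5-fold higher. They summed to 3088 CPM in the macrophage-rich spots and 1393 CPM in the remaining spots of the K14-Cre section, a ratio of 2.22 (2.04 to 2.4), and 6 of 7 were. Of all genes, 21.6% in the f/f and 19.1% in the K14-Cre section were at least 1.5-fold higher. *Cd74*, the invariant chain that guides class II molecules, was the most abundant, 245 UMIs, ratio 1.08 (0.95 to 1.23), and 425 UMIs, ratio 2.23 (2 to 2.47). The chains *H2-Aa*, *H2-Ab1* and *H2-Eb1* had ratios of 1.2 (0.868 to 1.62), 0.89 (0.629 to 1.23) and 1.19 (0.907 to 1.53) in the f/f section and of 2.2 (1.56 to 3.04), 2.05 (1.59 to 2.62) and 2.67 (2.14 to 3.31) in the K14-Cre section. *H2-DMa*, which loads peptides, had the highest ratio in both, 1.72 (1.02 to 2.75) and 2.71 (1.68 to 4.23), and *Ciita*, the transactivator of the whole group, had 1.53 (0.776 to 2.75) and 2.39 (1.35 to 4.01). Per spot the group had a median of 5 UMIs in both sections and a maximum of 22 and 101, so 1 spot of the K14-Cre section gave 101 of the 713 UMIs, and without it the ratio was 2 (1.84 to 2.18). Within layers the MHC class II ratios were 0.801 (0.678 to 0.941), 0.962 (0.819 to 1.12) and 1.2 (0.882 to 1.59) among dermis-led, fat-led and muscle-led spots of the f/f section, the first below 1, and 2.15 (1.91 to 2.42), 1.36 (1.08 to 1.7) and 0.842 (0.55 to 1.24) in the K14-Cre section. Among muscle-led spots the order of the sections turned, and both intervals include 1. With the remaining spots weighted to the layers of the macrophage-rich spots, the log2 ratio of the f/f section turned from 0.16 to -0.07. Dendritic cell genes, several of which macrophages share, had a ratio of 1.3 (1.09 to 1.54) and 1.5 (1.26 to 1.77), with *Sirpa* as the most abundant, but among dermis-led, fat-led and muscle-led spots each of their intervals included 1. *Itgax*, which encodes CD11c, had 0 UMIs in the macrophage-rich spots of both sections, and *Flt3* had 0 and 3. *Irf8*, a transcription factor of dendritic cells and macrophages, had 15 UMIs, ratio 1.61 (0.883 to 2.71), and 28 UMIs, ratio 2.93 (1.86 to 4.47). *Siglech*, a marker of plasmacytoid dendritic cells, had 0 UMIs in the f/f section and 10 in 6 spots of the K14-Cre section, a ratio of 9.41 (3.64 to 23.8). The list of Langerhans cells, which sit in the epidermis, also holds epithelial genes such as *Epcam*, and was lower, 0.452 (0.381 to 0.534) and 0.293 (0.227 to 0.372), and *Cd207* (langerin) had 1 UMI in each section.

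Complement genes beyond C1q were higher against all remaining spots, with a larger ratio in the f/f section that did not hold in each layer. The 13 genes gave 7433 CPM in the macrophage-rich spots and 2817 CPM in the remaining spots of the f/f section, a ratio of 2.64 (2.51 to 2.78). They gave 5648 CPM in the macrophage-rich spots and 3609.6 CPM in the remaining spots of the K14-Cre section, a ratio of 1.56 (1.48 to 1.66). At least 1.5-fold higher were 10 of 11 and 7 of 10 members, beside 21.6% and 19.1% of all genes. *C5ar1*, the receptor for the fragment C5a, had the highest ratio of this list in the f/f section, 5.84 (3.95 to 8.45) from 37 UMIs, with 2.63 (1.75 to 3.84) in the other. *C3ar1*, the C3a receptor, had 2.93 (2.07 to 4.05) and 2.2 (1.59 to 2.98). *Cfp*, properdin, which stabilizes the alternative pathway convertase, had 108 UMIs, ratio 2.47 (2.01 to 3.02), and 152 UMIs, ratio 3.34 (2.77 to 4.02). *C3*, the central component, had 407 UMIs, ratio 3.47 (3.12 to 3.85), and 222 UMIs, ratio 1.45 (1.26 to 1.67). *Cfd*, adipsin, which fat cells secrete, was the most abundant, 2.3 (2.08 to 2.53) and 1.31 (1.19 to 1.43). The fat list itself, which holds *Cfd*, had a ratio of 2.41 (2.26 to 2.58) and 1.36 (1.27 to 1.45). Without *Cfd* the complement ratio was 2.79 and 1.79. Against remaining spots led by the same layer list it was 2.03 (1.86 to 2.22) and 1.28 (1.14 to 1.44) among dermis-led and 1.2 (1.11 to 1.29) and 0.978 (0.896 to 1.07) among fat-led spots. Among muscle-led spots the order of the sections turned, with 1.28 (1.07 to 1.51) in the f/f and 1.54 (1.31 to 1.79) in the K14-Cre section. The part of fat tissue in the complement values was not tested.

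Chemokine genes were higher against all remaining spots of both sections. The 25 genes measured had a ratio of 2.1 (1.96 to 2.24) and 1.72 (1.58 to 1.86). At least 1.5-fold higher were 8 of 9 and 4 of 8 members, beside 21.6% and 19.1% of all genes. *Ccl6* had 186 UMIs, ratio 2.67 (2.28 to 3.11), and 174 UMIs, ratio 2.08 (1.76 to 2.45), and *Ccl9* had 84 UMIs, ratio 2.85 (2.24 to 3.58), and 121 UMIs, ratio 2.58 (2.1 to 3.15). Both attract CCR1-bearing leukocytes. *Ccl8*, a ligand of CCR8 in mice, had 1.5 (1.23 to 1.82) and 1.49 (1.16 to 1.89). *Pf4*, platelet factor 4, had 2.14 (1.8 to 2.53) and 1.9 (1.58 to 2.28). *Cxcl12*, made by fibroblasts and the most abundant in the f/f section, had 1.89 (1.63 to 2.17) and 1.8 (1.39 to 2.31), and *Cxcl14* had 3.01 (2.42 to 3.71) and 1.12 (0.765 to 1.6). *Ccl20*, which recruits CCR6-bearing T cells, had 0 and 1 UMIs in the macrophage-rich spots. Against remaining spots led by the same layer list the chemokine ratios were 1.49 (1.34 to 1.65), 1.17 (1.05 to 1.3) and 0.985 (0.748 to 1.27) among dermis-led, fat-led and muscle-led spots of the f/f section, the last not above 1, and 1.18 (1.02 to 1.35), 1.5 (1.3 to 1.74) and 1.4 (1.1 to 1.77) in the K14-Cre section. Iron and haem genes had a ratio of 1.68 (1.59 to 1.77) and 1.46 (1.37 to 1.56), which became 1.35 (1.23 to 1.47), 0.983 (0.907 to 1.07) and 1.01 (0.848 to 1.19) and 1.26 (1.13 to 1.42), 1.07 (0.952 to 1.19) and 1.29 (1.08 to 1.52) in these layers. *Slc11a1*, the iron transporter NRAMP1 of the phagosome, had 2.91 (1.78 to 4.55) and 2.13 (1.19 to 3.61), *Trf*, transferrin, 2.98 (2.42 to 3.64) and 1.47 (1.13 to 1.88), and *Hmox1*, haem oxygenase 1, 1.87 (1.45 to 2.39) and 0.951 (0.641 to 1.36).

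Of the other leukocytes, mast cell genes had a high ratio in the f/f section against all remaining spots. The 11 mast cell genes summed to 544 CPM in the macrophage-rich spots and 141 CPM in the remaining spots of the f/f section (125 UMIs), a ratio of 3.87 (3.17 to 4.68), and to 204 CPM in the macrophage-rich spots and 154 CPM in the remaining spots of the K14-Cre section (47 UMIs), a ratio of 1.32 (0.954 to 1.79). At least 1 such UMI lay in 40 and 22 of the 80 spots, and a spot held at most 15 and 8. The granule proteases carried this: *Cma1*, mast cell chymase, had 49 UMIs, ratio 4.37 (3.15 to 5.96), and 8 UMIs, ratio 1.06 (0.444 to 2.19). *Tpsb2*, a tryptase, had 21 UMIs, ratio 8.23 (4.74 to 13.8), and 4 UMIs, ratio 0.903 (0.237 to 2.46). *Cpa3*, carboxypeptidase A3, had 15 UMIs, ratio 7.32 (3.79 to 13.4), and 6 UMIs, ratio 3.08 (1.02 to 7.83). *Mcpt4* had 19 UMIs, ratio 2.86 (1.67 to 4.62), and 10 UMIs, ratio 1.88 (0.859 to 3.7). *Kit*, the stem cell factor receptor, had 6 and 6 UMIs. Only *Cma1* and *Mcpt4* reached 100 UMIs over the f/f section, and no mast cell gene did so in the K14-Cre section. Within layers the ratios were 3.05 (2.24 to 4.11), 1.65 (1.18 to 2.26) and 2.35 (1.04 to 4.63) among dermis-led, fat-led and muscle-led spots of the f/f section and 0.811 (0.467 to 1.34), 2.18 (1.27 to 3.6) and 0.297 (0.00743 to 1.71) in the K14-Cre section, so the order of the sections turned among fat-led spots. With the remaining spots weighted by layer the log2 ratio of the f/f section was 1.17 in place of 1.95.

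Neutrophil genes were lower as a list, and its most abundant genes are ones that keratinocytes of inflamed skin also express. The 15 genes had a ratio of 0.368 (0.347 to 0.39) and 0.371 (0.328 to 0.419). With the remaining spots weighted by layer their log2 ratios were -0.49 and -0.52, in place of -1.44 and -1.43. *S100a8* and *S100a9*, the calprotectin subunits, had ratios of 0.302 (0.273 to 0.334) and 0.37 (0.342 to 0.4) in the f/f section and 0.194 (0.155 to 0.241) and 0.396 (0.312 to 0.495) in the K14-Cre section. Without these and *Lcn2*, 12 genes were left, with a ratio of 1.77 (1.36 to 2.28) from 66 UMIs and 1.05 (0.743 to 1.46) from 40 UMIs. Against spots led by the same layer list the 12 genes had 1.22 (0.786 to 1.84) among dermis-led, 1.54 (1.01 to 2.27) among fat-led and 0.806 (0.163 to 2.42) among muscle-led spots of the f/f section. In the K14-Cre section they had 0.69 (0.379 to 1.18), 1.5 (0.758 to 2.75) and 2.12 (0.661 to 5.3), and each interval includes 1. *Csf3r*, the G-CSF receptor, which monocytes also carry, had 29 UMIs, ratio 2.6 (1.7 to 3.83), and 6 UMIs, ratio 1.08 (0.38 to 2.47). It gave 43.9% of the UMIs of the 12 genes in the f/f section, where the ratio without it was 1.42 (0.988 to 1.98), which includes 1. As many chemosensory receptor genes at their mean level would give 10.6% and 39.6% of the level of the 12 genes. *Ly6g*, the defining marker, had 0 and 1 UMI, and *Mpo* 1 and 0, at or near 0.

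Lymphocyte genes were few. The 19 T cell genes summed to 41 and 38 UMIs in the macrophage-rich spots, with ratios of 0.847 (0.604 to 1.16) and 0.574 (0.403 to 0.796). In the f/f section 1 spot held 14 of these UMIs, and without it the ratio was 0.576 (0.378 to 0.843). As many genes at the mean level of the receptor genes would give 26.9% and 65.9% of that level, and the K14-Cre value is read as little above background. *Cd3e* had 2 and 10 UMIs, and *Trbc2*, a T cell receptor constant region, 3 and 0. *Cd4*, which macrophages can also express at a low level, had 9 UMIs, ratio 3.73 (1.62 to 7.62), and 2 UMIs, ratio 0.982 (0.112 to 3.97). NK and innate lymphoid genes had ratios of 0.424 (0.296 to 0.59) and 0.627 (0.412 to 0.917), led by *Rora* and *Gata3*, which keratinocytes express, and the receptor genes' level would give 17.7% and 51.8% of that of the list. B cell genes had 18 and 24 UMIs with ratios of 1.3 (0.758 to 2.08) and 0.944 (0.595 to 1.43), and a background share of 32.3% and 55%. Eosinophil and basophil genes had 5 and 13 UMIs and a background share of 81.3% and 71%, near the background.

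Imiquimod acts through Toll-like receptor 7, which plasmacytoid dendritic cells and macrophages carry. The 17 Toll-like receptor genes and partners were higher as a sum, with a ratio of 1.85 (1.6 to 2.12) and 2.11 (1.86 to 2.4). At least 1.5-fold higher were 3 of 5 and 2 of 3 members, beside 21.6% and 19.1% of all genes. *Unc93b1*, which carries the endosomal receptors to their compartment, gave more UMIs than any other member, 119 UMIs, ratio 2.57 (2.11 to 3.12), and 166 UMIs, ratio 2.86 (2.4 to 3.4). These were 54.1% and 57.4% of the UMIs of the list, and without *Unc93b1* its ratios were 1.39 (1.12 to 1.7) and 1.56 (1.28 to 1.89). *Tlr7* itself had 5 UMIs in 3 of the 80 spots of the f/f section, a ratio of 1.59 (0.501 to 3.9), and 15 UMIs in 5 spots of the K14-Cre section, a ratio of 4.13 (2.12 to 7.62). The adaptor *Myd88* had 1.17 (0.778 to 1.7) and 0.832 (0.507 to 1.3). Among dermis-led, fat-led and muscle-led spots the list had 1.46 (1.16 to 1.83), 1.28 (1.02 to 1.59) and 1.39 (0.874 to 2.12) in the f/f section and 1.66 (1.37 to 2), 1.08 (0.75 to 1.53) and 1.64 (1.03 to 2.48) in the K14-Cre section. Interferon response genes had a ratio of 1.39 (1.2 to 1.6) and 1.69 (1.46 to 1.95), which became 1.04 (0.823 to 1.3), 0.936 (0.749 to 1.16) and 0.688 (0.364 to 1.19) and 1.63 (1.3 to 2.04), 1.34 (0.974 to 1.8) and 0.989 (0.606 to 1.53) in these layers, and only the dermis-led interval of the K14-Cre section lay above 1. Their most abundant member was *Ifitm3*, an inhibitor of virus entry, 1.51 (1.253 to 1.82) and 1.72 (1.38 to 2.12), and *Bst2*, tetherin, had 1.33 (0.802 to 2.09) and 2.57 (1.81 to 3.59). The psoriasis-related cytokine genes gave few UMIs: *Il17a* had 2 and 1 UMIs, *Il23a* 0 and 1, and the 9 genes together 11 and 25. As many chemosensory receptor genes at their mean level would give 47.5% of that level in both sections. In the macrophage-rich spots the ratio of K14-Cre over f/f was 2.26 (1.07 to 5.09) for the 9 genes and 2.26 (2.07 to 2.47) for the chemosensory genes. *S1pr2*, with the few UMIs given above, had a ratio of 1.87 (0.943 to 3.37) and 0.903 (0.237 to 2.46). *Spns2*, the transporter that exports sphingosine 1-phosphate, was lower, 12 UMIs, ratio 0.331 (0.17 to 0.581) in the f/f section, and 0 UMIs in the K14-Cre section, at least 4.02-fold lower if 0 is taken as 3 UMIs.

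Among single genes with at least 100 UMIs in each section and outside the rule, the 12 with the highest ratio in the f/f section mixed macrophage genes with genes of fibroblasts and fat. The highest was *C5ar1*, given above. After it came *Gfpt2*, an enzyme of hexosamine synthesis, at 5.12 (3.44 to 7.44), with 1.44 (0.741 to 2.57) in the K14-Cre section. *Agt*, angiotensinogen, had 4.43 (2.63 to 7.13) and 1.09 (0.581 to 1.89). *Abcd2*, a peroxisomal lipid transporter, had 4.22 (2.48 to 6.86) and 0.934 (0.455 to 1.73). *Cd209g*, a C-type lectin of the CD209 family, had 4.11 (3.02 to 5.49) from 55 UMIs and 2.03 (1.27 to 3.12). It has close paralogues, so its count is uncertain. *Col14a1*, a fibril-associated collagen, had 4.1 (3.04 to 5.46) and 2.18 (1.68 to 2.79). *Cygb*, *Gpc3*, *Thrsp*, *Sult1a1* and *Tnfaip6* had 4.09, 4.02, 4.02, 3.89 and 3.81. Of these 12 genes, 10 lay above 1 in the K14-Cre section and 7 were at least 1.5-fold higher there. The exceptions below 1 were *Abcd2* and *Thrsp*, a factor of fat synthesis, at 0.797 (0.503 to 1.21). These genes were picked for their ratio in the f/f section, so that ratio is a description.

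In the K14-Cre section the 12 highest genes included several genes of myeloid cells. *Clec12a*, an inhibitory lectin of myeloid cells, was first at 5.02 (3.37 to 7.36) from 40 UMIs, while the f/f section had 4 UMIs and 0.887 (0.237 to 2.34). *Fmnl1*, a formin of blood cells, had 3.99 (2.79 to 5.63) and 2.04 (1.253 to 3.16). *Cd48*, a ligand of leukocyte adhesion, had 3.81 (2.39 to 5.91) and 1.93 (1.08 to 3.22). *Tnfrsf1b*, TNF receptor 2, had 3.8 (2.43 to 5.81) and 2.29 (1.35 to 3.68). *Mpeg1*, the macrophage perforin, had 3.42 (2.77 to 4.21) from 121 UMIs and 1.35 (0.91 to 1.95) from 31 UMIs. *Mfap5*, a protein of elastic fibres, had 3.5 (2.32 to 5.15) and 3.27 (2.12 to 4.88). *Pid1*, *Tm6sf1*, *Ssh3*, *Nrf1* and *Ctbp2* were also among the 12, with ratios from 3.4 to 4.19. Of the 12, 9 lay above 1 in the f/f section and 8 were at least 1.5-fold higher there, and *Clec12a*, *Ssh3* and *Ctbp2* lay below 1. The 12 were picked for their ratio in the K14-Cre section, so that ratio is a description. In the remaining spots of that section *Clec12a*, *Pid1*, *Tm6sf1*, *Cd48*, *Tnfrsf1b*, *Ssh3* and *Nrf1* had only 79 to 90 UMIs. They passed the UMI limit for single genes only through their UMIs in the macrophage-rich spots. Whether myeloid genes were more frequent here than among all genes was not tested.

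The genes with the lowest ratios belonged in part to the epidermis. In the K14-Cre section *Spint1*, a protease inhibitor of epithelia, *Has3*, a hyaluronan synthase, *Spns2*, *Slc25a13*, *Gk* and *Abhd12b* had 0 UMIs in the macrophage-rich spots, and were at least 3.84-fold to 4.96-fold lower with 3 UMIs as the floor for the 80 spots together. All 6 were at least 1.5-fold lower in the f/f section as well, from 0.293 for *Spint1* to 0.559 for *Has3*. In the f/f section *N4bp3* and *Mstn*, the inhibitor of muscle growth myostatin, had 0 UMIs and were at least 2.06-fold and 1.82-fold lower. *Adgrf4*, an adhesion receptor of epithelia, had 2 and 1 UMIs in the macrophage-rich spots and ratios of 0.0926 (0.0112 to 0.336) and 0.105 (0.00262 to 0.595). *Crybg2*, *Narf* and *Brd8* had 1 UMI each in the f/f section, and 4 of these 6 genes were at least 1.5-fold lower in the K14-Cre section. The exceptions lay above 1 there, *N4bp3* at 1.65 (0.845 to 2.97) from 13 UMIs and *Narf* at 1.38 (0.819 to 2.2) from 20 UMIs. Over the 5646 genes with at least 100 UMIs in both sections, 488 were at least 1.5-fold higher in both, which is 41.8% of those of the f/f section and 45.7% of those of the K14-Cre section. At least 1.5-fold lower in both were 490, or 50% and 38.1%. Of all these genes, 20.7% and 18.9% were higher and 17.4% and 22.8% lower in the f/f and the K14-Cre section. Of the genes higher in the f/f section 109 were at least 1.5-fold lower in the K14-Cre section, and of those lower 80 were higher.

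The tissue around the macrophages differed from that of the remaining spots as well. Epidermal keratinocyte genes were lower in the macrophage-rich spots, 0.355 (0.346 to 0.364) and 0.197 (0.186 to 0.209), with all 17 members that reached 100 UMIs at least 1.5-fold lower in each section. Of all genes, 20.5% and 22.8% were. Dermal matrix genes were higher, 1.86 (1.81 to 1.91) and 2.2 (2.15 to 2.25). *Col3a1*, collagen III, gave 10062 CPM against 5309.6 CPM in the f/f section and 14043 CPM against 6571 CPM in the K14-Cre section. Skeletal muscle genes had a ratio of 0.974 (0.945 to 1) in the f/f section, but of 1.19 (1.14 to 1.24) and 2.38 (2.27 to 2.5) within its longer and its smaller piece, and were lower in the K14-Cre section, 0.705 (0.691 to 0.719). Red cell and platelet genes were higher in the f/f section, 2.68 (2.51 to 2.86), where 1 spot held 288 of the 1038 UMIs, and had 1.24 (1.07 to 1.44) in the K14-Cre section. *Pf4*, which is also on the resident macrophage and chemokine lists, gave 70.6% of the UMIs of the red cell and platelet list in the K14-Cre section, and without it the ratio there was 0.678 (0.511 to 0.885), below 1. Against spots led by the same layer list the f/f ratio was 2.98 (2.69 to 3.29) among dermis-led, 1.24 (1.12 to 1.37) among fat-led and 0.471 (0.334 to 0.646) among muscle-led spots, and the K14-Cre ratio lay between 0.737 and 0.862. The f/f ratio without *Hbb-bs*, a haemoglobin chain, was 2.71 (2.48 to 2.95). Every level is a share of all UMIs of the same spots, so the shares depend on each other. Epidermal genes took 27513 CPM in the macrophage-rich and 77544 CPM in the remaining spots of the f/f section. In the K14-Cre section they took 4960 and 25112 CPM. The part of this in the other ratios was not tested.

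Against remaining spots led by the same layer list, the 20 other macrophage genes stayed above 1 and the activation genes had intervals that mostly included 1. They had ratios of 1.32 (1.17 to 1.49) among dermis-led, 1.17 (1.03 to 1.32) among fat-led and 1.76 (1.4 to 2.19) among muscle-led spots of the f/f section, and 1.47 (1.33 to 1.63), 1.59 (1.35 to 1.86) and 1.44 (1.13 to 1.81) in the K14-Cre section. These were lower than the ratios against all remaining spots. Alternative activation genes lay between 1.03 and 1.2 in these layers of both sections, with every interval including 1. Classical activation genes had 0.531 (0.293 to 0.893) from 15 UMIs in dermis-led, 1.3 (0.869 to 1.89) in fat-led and 1.55 (0.656 to 3.14) in muscle-led spots of the f/f section. They had 0.863 (0.597 to 1.22), 0.992 (0.494 to 1.82) and 1.89 (1.01 to 3.27) in the K14-Cre section, the last from 14 UMIs. In the same muscle-led spots the chemosensory receptor genes, the background, had 1.3 (1.03 to 1.62) in the f/f and 1.71 (1.44 to 2.02) in the K14-Cre section. The dermis-led, fat-led and muscle-led macrophage-rich spots numbered 25, 27 and 21 in the f/f section and 32, 22 and 14 in the K14-Cre section, and layers with fewer than 10 gave no value.

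**Figure D5:**
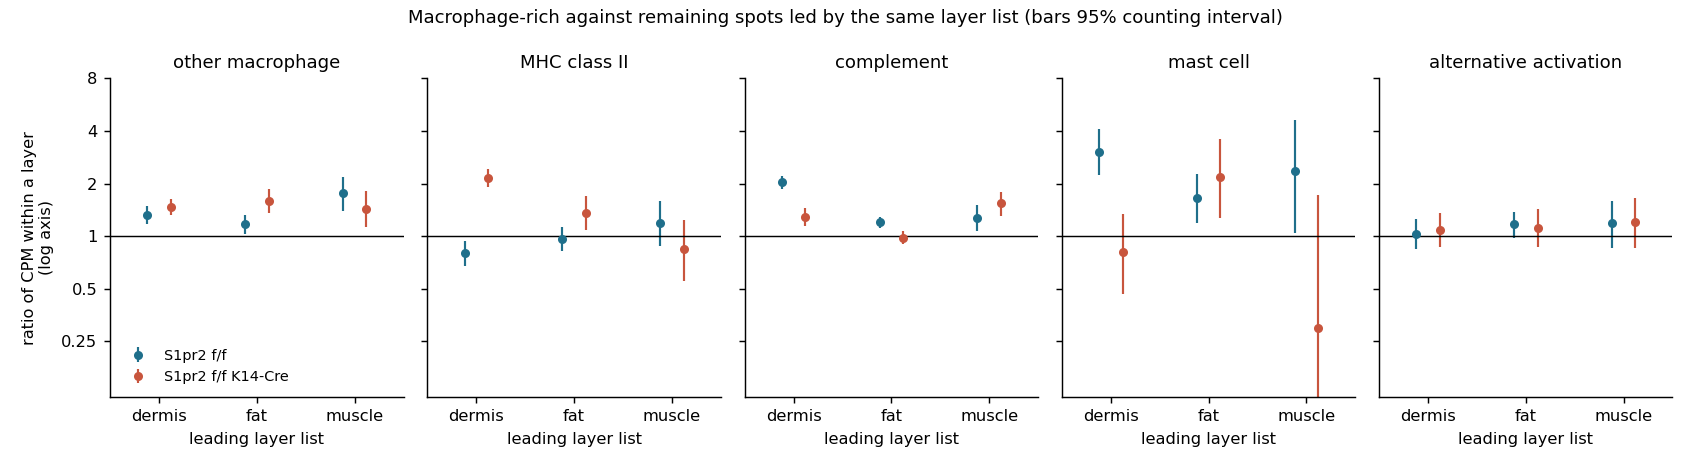
Ratio of summed CPM in macrophage-rich over remaining spots led by the same layer list, for 5 gene lists and 3 layers, on a log axis, with 95% intervals for counting error, of which that of the mast cell genes in muscle-led spots of the S1pr2 f/f K14-Cre section runs below the axis. Other macrophage genes lie above 1 in every layer of both sections, and the MHC class II ratio is highest among dermis-led spots of the S1pr2 f/f K14-Cre section.

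Within the 2 pieces of the f/f section the macrophage genes lay above 1. The other macrophage genes had 1.69 (1.46 to 1.96) in the longer piece and 1.89 (1.72 to 2.06) in the smaller piece. Mast cell genes had 3.79 (2.5 to 5.54) and 2.94 (2.32 to 3.7), and complement genes 2.26 (2.05 to 2.49) and 2.53 (2.38 to 2.69). MHC class II genes had 1.34 (1.14 to 1.56) in the longer and 1.04 (0.916 to 1.19) in the smaller piece. Alternative activation genes lay on both sides of 1, with 1.07 (0.878 to 1.28) and 0.838 (0.731 to 0.958), and so did red cell and platelet genes, with 0.675 (0.545 to 0.826) and 5.33 (4.93 to 5.76).

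Placed side by side, the macrophage-rich spots of the sections differed in composition, with 1 section per genotype and no test. The 20 other macrophage genes took 3286 CPM in the f/f and 4349 CPM in the K14-Cre macrophage-rich spots, a ratio of K14-Cre over f/f of 1.32 (1.2 to 1.46). In the remaining spots this ratio was 1.09 (1.05 to 1.13). For MHC class II genes it was 1.62 (1.44 to 1.83) in the macrophage-rich and 0.821 (0.79 to 0.854) in the remaining spots. For resident macrophage genes it was 0.744 (0.673 to 0.823) and 0.957 (0.924 to 0.991), for complement 0.76 (0.707 to 0.817) and 1.28 (1.248 to 1.32), and for mast cell genes 0.374 (0.262 to 0.527) and 1.1 (0.968 to 1.24). For alternative activation genes it was 0.715 (0.606 to 0.843) and 0.859 (0.825 to 0.893). *Cd163*, outside the rule, had 0.446 (0.309 to 0.634) in the macrophage-rich spots. The background differed too: the chemosensory receptor genes took 3099 and 7004 CPM, a ratio of 2.26 (2.07 to 2.47), and 2.72 (2.66 to 2.78) in the remaining spots. Within a section they differed less between macrophage-rich and remaining spots, 1.15 (1.07 to 1.24) and 0.956 (0.908 to 1.01). The part of this background in the differences between the sections was not tested for single genes. The tissue differed as well, with muscle genes at 2.4 (2.32 to 2.48), developmental muscle genes at 18.1 (10.4 to 34.6), and epidermal genes at 0.18 (0.169 to 0.192) in the macrophage-rich spots, so genotype, section and place on the skin cannot be told apart.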

How the data were processed

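Spatial transcriptomes of 2 skin sections, 1 per genotype, were analysed. The authors deposited filtered matrices of raw UMI counts per gene and spot (19465 genes), made with Space Ranger 3.0.0 per the file headers, and the submitters' processing notes name mm10. The paper names Partek Flow for processing the images and sequence files and for the expression analysis. No column was left unmatched (0). Here the counts were read with Python 3.11.15, numpy 2.4.6, pandas 2.3.3 and scipy 1.17.1, and plotted with matplotlib 3.10.9. Spots with at least 500 UMIs were kept and no doublet caller was run, since a spot covers several cells. Levels are summed UMIs per 1000000 UMIs of the same spots. Ratios have conditional binomial, levels Poisson and shares Clopper-Pearson 95% intervals, which cover counting error only. A gene with at least 100 UMIs over the kept spots was counted as higher or lower at 1.5-fold. The ratio code was tested on simulated data.

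With 1 section per genotype no test was made, and spots were not used as replicates. Named single genes were taken by ratio in each section, 12 from the top and 6 from the bottom, among genes with at least 100 UMIs in both sections and outside the 7 of the rule (ties at 0 by more UMIs in the remaining spots), and from each of the 38 gene lists the most abundant and the most and least enriched members. Other list members were named with their values in view. Some genes that the rule takes are not reported here. The members and lists were chosen with earlier results of these data known. Spots below 500 UMIs entered no comparison. Alternatives were other numbers of spots, other rankings, thinning to 500 UMIs, comparison spots of similar depth or layer, other thresholds, and the receptor background taken off. Leaving out the most abundant gene or the spot with the most UMIs of a list, and the distance to epidermis-led spots, were added after seeing the data. Promoter sequences are those of RefSeq on GRCm38.p6.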

Additional observations from a re-analysis of the deposited data

Results flagged for a closer look

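The sebaceous gland list lay on opposite sides of 1 in the sections, with a ratio of the macrophage-rich over the remaining spots of 1.49 (1.37 to 1.62) in the f/f section and 0.718 (0.638 to 0.807) in the K14-Cre section. Without *Scd1*, its most abundant gene, the ratios were 1.48 (1.33 to 1.65) and 0.857 (0.731 to 0.999). *Scd1* had 256 and 129 UMIs and *Fasn* 197 and 109. *Awat1*, *Awat2*, *Mc5r* and *Elovl3* had only 8, 0, 0 and 2 UMIs in the f/f section and 5, 2, 1 and 1 in the other. The list shares *Pparg* with the fat list, which had ratios of 2.41 and 1.36. The part of fat tissue in the sebaceous values was not tested. Against remaining spots led by the same layer list the sebaceous ratios were 1.01 (0.867 to 1.18), 1.27 (1.13 to 1.42) and 0.956 (0.673 to 1.32) among dermis-led, fat-led and muscle-led spots of the f/f section and 0.346 (0.258 to 0.456), 0.761 (0.645 to 0.894) and 0.695 (0.433 to 1.06) in the K14-Cre section. The smooth muscle and pericyte list also lay on opposite sides of 1, with 1.19 (1.09 to 1.29) and 0.903 (0.841 to 0.968), through *Des*, which skeletal muscle also expresses and which gave 73.7% and 79.5% of its UMIs. Without *Des* it lay above 1 in both sections, 1.61 (1.36 to 1.9) and 1.66 (1.41 to 1.95). With *Des*, the ratios in these layers were 1.14 (0.921 to 1.4), 0.806 (0.691 to 0.936) and 1.08 (0.947 to 1.22) in the f/f section. They were 1.01 (0.879 to 1.15), 0.879 (0.752 to 1.02) and 0.953 (0.849 to 1.07) in the K14-Cre section. Only the fat-led interval of the f/f section excluded 1, and it lay below. The difference of the sebaceous genes between the sections was not tested. The spots under 500 UMIs, which no comparison used, held 87 UMIs of the 7 macrophage genes in the f/f section and 10 in the K14-Cre section, out of 40706 and 9117 UMIs in 186 and 34 spots.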

How the results depend on the processing

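With 1 section per genotype and few UMIs per list, counting error limits these values, among them those of the T cell and classical activation lists. The values below are log2 ratios of the macrophage-rich over the remaining spots, or of the K14-Cre over the f/f macrophage-rich spots, for the lists that a setting moved beyond the 95% counting interval and the single genes whose direction it turned, and the cause was not tested. Other macrophage genes kept their direction in 18 of 18 settings in both sections, mast cell genes in 18 of 18 (f/f) and 16 of 18 (K14-Cre), MHC class II genes in 17 of 18 and 18 of 18, and K14-Cre over f/f in 15 of 15 for MHC class II, alternative activation and mast cell genes. The T cell difference between the sections changed direction in some of them, keeping it in 8 of 15, and carries no direction. With the top 40 spots the values were in the f/f section -0.31 (classical activation), -1.39 (T cell) and -0.91 (*Cd48*), in the K14-Cre section -0.41 (classical activation), -0.57 (alternative activation) and -0.12 (mast cell), for K14-Cre over f/f 1.41 (T cell), -2.21 (mast cell) and -2.32 (neutrophil). With the top 160 spots the values were in the f/f section 0.051 (*Brd8*), in the K14-Cre section 1.06 (other macrophage), 0.93 (MHC class II) and -0.18 (*N4bp3*), for K14-Cre over f/f 0.17 (other macrophage) and 0.43 (MHC class II). With spots thinned to 500 UMIs before ranking the values were in the f/f section 0.62 (other macrophage), -0.23 (alternative activation), 0.30 (T cell), 1.41 (mast cell), -1.04 (neutrophil), -0.78 (*Nrf1*), 0.12 (*Has3*) and 0.061 (*Brd8*), in the K14-Cre section 0.99 (other macrophage), 0.80 (MHC class II) and the share led by dermal or fat genes was 53.8%, for K14-Cre over f/f 0.37 (MHC class II) and -2.43 (neutrophil). With a ranking by summed UMIs the values were in the f/f section 0.83 (other macrophage), 1.42 (mast cell), -1.17 (neutrophil) and 0.39 (*Brd8*), in the K14-Cre section 1.00 (other macrophage), 0.80 (MHC class II), -0.34 (mast cell), -2.08 (neutrophil), -0.045 (*Cd209g*), -0.25 (*N4bp3*) and 0.087 (*Brd8*), for K14-Cre over f/f 0.38 (MHC class II) and -2.95 (neutrophil). Against spots of similar depth the values were in the f/f section 0.72 (other macrophage), 1.51 (mast cell) and -1.16 (neutrophil). Against spots weighted by layer the values were in the f/f section 0.39 (other macrophage), 0.14 (alternative activation), -0.074 (MHC class II), 1.17 (mast cell) and -0.49 (neutrophil), in the K14-Cre section 0.76 (other macrophage), -0.047 (alternative activation), 0.94 (MHC class II) and -0.52 (neutrophil). With a mean over spots the values were in the f/f section 0.70 (other macrophage) and -1.21 (neutrophil), in the K14-Cre section 1.10 (other macrophage), 0.92 (MHC class II) and -1.25 (neutrophil), for K14-Cre over f/f 0.47 (MHC class II). With *Mrc1* out of the ranking the values were in the f/f section -1.19 (T cell), for K14-Cre over f/f 0.75 (T cell). With *C1qa* out of the ranking the values were in the K14-Cre section 1.09 (other macrophage) and 0.97 (MHC class II), for K14-Cre over f/f 0.49 (MHC class II). With *C1qb* out of the ranking the values were in the f/f section -0.80 (T cell). With *C1qc* out of the ranking the values were in the f/f section 0.080 (*Brd8*), in the K14-Cre section -1.24 (neutrophil). With the receptor background taken off the values were for K14-Cre over f/f -1.22 (T cell). Without the most abundant gene of the list, chosen after seeing the data, they were in the f/f section -0.44 (alternative activation), in the K14-Cre section -0.67 (neutrophil). Without the spot with the most UMIs of the list, also chosen after seeing the data, they were in the f/f section -0.80 (T cell), in the K14-Cre section 1.00 (MHC class II). At a threshold of 2-fold, 679 and 376 genes were higher and 947 and 705 lower, against 1825 and 1097 higher and 1733 and 1312 lower. With all genes of at least 1 UMI, 5395 and 4469 were higher and 6684 and 7249 lower, and with at least 50 UMIs 2009 were higher and 2479 lower in the K14-Cre section. Of all values recomputed, 312 main and 889 single-gene values stayed within these limits, and 70 and 119 moved. The sign of the log2 ratio changed in 26 of 383 main and 47 of 1019 single-gene values, among them 1 value of a list whose interval excluded a log2 ratio of 0 and 11 values of single genes past 1.5-fold, and T cell, classical activation, alternative activation and mast cell values. No paired analysis was possible because each genotype has 1 section.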

Other observations

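Nerve, vessel and phagocytic clearance genes had ratios above 1 against all remaining spots. Genes of Schwann cells and nerves had a ratio of 2.38 (2.04 to 2.77) in the f/f section and 1.63 (1.42 to 1.86) in the K14-Cre section. Against spots led by the same layer list the nerve ratios were 1.76 (1.36 to 2.24) among dermis-led, 1.27 (0.989 to 1.61) among fat-led and 1.94 (1.19 to 3.03) among muscle-led spots of the f/f section. In the K14-Cre section they were 1.19 (0.981 to 1.44), 0.871 (0.602 to 1.23) and 1.14 (0.731 to 1.71), and each interval includes 1. Endothelial genes had 1.56 (1.33 to 1.82) and 1.24 (1.06 to 1.44), but each of their intervals within a layer included 1. Genes for the uptake of dying cells and lipid had 1.56 (1.46 to 1.67) and 1.59 (1.48 to 1.7), which became 1.14 (1.01 to 1.28), 1.05 (0.941 to 1.17) and 1.39 (1.13 to 1.69) among dermis-led, fat-led and muscle-led spots of the f/f section and 1.24 (1.11 to 1.39), 1.15 (0.989 to 1.32) and 1.36 (1.11 to 1.65) in the K14-Cre section. Cell cycle genes had 0.803 (0.681 to 0.942) and 0.914 (0.775 to 1.07), with 4 of 10 and 2 of 9 of the more abundant members 1.5-fold lower or more and 1 in each section 1.5-fold higher or more, beside 20.5% and 22.8% of all genes lower. Developmental muscle genes had 0.799 (0.422 to 1.38) from 13 UMIs and 1.32 (1.15 to 1.52) from 237 UMIs. In the K14-Cre section the direction turned among dermis-led spots, which held 158 of these UMIs, with 0.522 (0.439 to 0.617), and the ratio was 1.06 (0.544 to 1.91) among fat-led and 1.05 (0.667 to 1.58) among muscle-led spots.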
